A study of Sus scrofa with 12 samples.

Results

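Fatty acid oxidation in muscle was followed here through 10 genes, namely ACADVL, ACADL, ACADM, ACADS, ACSL1, ACAA2, HADHA, HADHB, CPT1B and CPT2. The genes were chosen by symbol, and every probe set that the platform annotation gives to 1 of these symbols was taken. They are 10 of 6765 genes that the annotation names on the array, and have 13 of its 24123 probe sets. ACADVL had 2 probe sets, HADHB had 3 and each of the other genes had 1. The samples were skeletal muscle of pigs taken on the first day of life, called day 0, or when the animals were 7, 14 or 21 days old. Each age had 3 biological replicates on Affymetrix arrays, 12 arrays in all, and the labels give no treatment, muscle, breed or sex. A probe set is a group of short probes that reads 1 transcript, and its signal rises with the amount of labelled RNA.

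Long chain fatty acids are joined to coenzyme A by acyl-CoA synthetases such as ACSL1, and cross into mitochondria through the carnitine palmitoyltransferases CPT1B and CPT2. In the mitochondrial matrix the chain is then shortened in repeated turns of the beta-oxidation spiral. The first step of each turn is carried out by acyl-CoA dehydrogenases that differ in the chain length they prefer, and the later steps for long chains by the trifunctional protein of HADHA and HADHB. Milk is rich in fat, so a suckling animal takes in much more fat after birth than before it. These statements are background and no result of the arrays.

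Of the 13 probe sets, 12 passed the filter on low signal and were tested, and they cover 9 genes. The exception was the only CPT2 probe set. CPT2 is the inner membrane transferase that returns the fatty acid to coenzyme A. Its signals were 16.0, 24.8 and 136.8 at day 0, 31.9, 110.9 and 14.3 at day 7, 121.8, 94.1 and 13.5 at day 14, and 15, 20.4 and 111.5 at day 21. They scattered at every age around the limit of the filter, a mean signal of 90.3, and no statement on CPT2 is made from them. The tested members lay far above that limit, with no signal under 678.0. No array gives a level that can be compared between 2 probe sets, so levels are compared only within a probe set.

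Several measures other than the members moved with age. The hybridization controls, added in fixed amount, averaged 12.55 in log2 signal on the later arrays (12.40 to 12.79) and 12.20 at day 0 (12.09 to 12.26). The 28S ribosomal RNA probe sets averaged 12.48 in log2 signal on the later arrays (12.08 to 12.79) and 11.50 at day 0 (11.04 to 11.89). Those of 18S ribosomal RNA overlapped, with means of 10.83 on the later arrays (10.45 to 11.27) and 10.33 at day 0 (9.78 to 11.03). The poly-A spike-in RNAs, read at both ends, had a log2 ratio of 3' over 5' signal, here called the spike ratio, that averaged 0.51 on the later arrays (0.37 to 0.67) and 0.98 at day 0 (0.66 to 1.59). Replicate 2 alone stood apart at day 0, and without it the day 0 mean was 0.68. Of 11 tested skeletal muscle markers 6 rose, 1 fell and 4 were not called after day 0. Their summed signal, in which the brightest weigh most, was 306725.0 to 430367.6 on the later arrays and 215236.7 to 298431.2 at day 0. The defining muscle genes MYH2, MYH7, TTN, TNNT3 and CKM were bright on every array, with no signal under 5402.5. Of 8 tested endothelial markers 5 rose and 1 fell after day 0, with a summed signal of 6153.8 to 9329.7 on the later arrays and 5045.3 to 6090.0 at day 0. Of 5 tested smooth muscle and pericyte markers 3 rose and 0 fell, with sums of 16783.5 to 26649.1 on the later arrays and 11717.7 to 14272.4 at day 0. The sums of 4 adipocyte markers overlapped, at 2636.1 to 7620.9 on the later arrays and 3057.5 to 4409.4 at day 0. Of 8 macrophage markers 2 rose, among them LAPTM5 by 1.56 ± 0.27 (limma adjusted p = 0.00176), and 0 fell, with overlapping sums of 2306.4 to 6212.7 on the later arrays and 1819.0 to 2834.9 at day 0. Of 3 erythroid markers 1 rose and 1 fell. ALAS2 rose by 0.67 ± 0.22 and HBB changed by -0.99 ± 0.19 (limma adjusted p = 0.0492 and 0.00399). The third, AHSP, was at 0.48 ± 0.66 and did not pass (limma adjusted p = 0.658). Of 3 heart markers with a probe set none passed the filter. The part of these measures in the results below was not tested, and in whole muscle fewer cells of a type and less RNA per cell cannot be told apart.

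In the main fit, muscle after the first day of life held less RNA of ACADVL, HADHA and CPT1B than newborn muscle. For ACADVL this call was made in only 1 of its 2 probe sets. No member passed the test as higher. Of 22 alternative settings, the call held in 22 for ACADVL, in 21 for HADHA and in 16 for CPT1B. Taking days 7, 14 and 21 together against day 0, ACADVL was lower by 41.7% in the brighter of its 2 probe sets, HADHA by 34.4% and CPT1B by 34.5%. ACADVL starts the spiral for very long chains, HADHA carries the hydratase and hydroxyacyl-CoA dehydrogenase activities of the trifunctional protein, and CPT1B is the muscle transferase of the outer membrane. The other 9 tested probe sets did not pass the test. They were the dimmer one of ACADVL and those of ACADL, ACADM, ACADS, ACSL1, ACAA2 and HADHB. Called probe sets had an adjusted p under 0.05 in limma, with Benjamini-Hochberg adjustment over the 14399 probe sets tested. Thus 3 of 12 member probe sets were called, all lower, where the background was 19.6% of all probe sets in either direction and 8.76% lower. The members are bright, and the share called was higher among brighter probe sets. With a filter that left out the lowest 60%, 2547 of 9600 (26.5%) were called, 1216 of these lower. The members had the same count of 3 there, all lower. In the same 3 probe sets all 9 later arrays lay below all 3 day 0 arrays, which held for 7.15% of all probe sets. The median change of these 12 member probe sets was -9.7e-05 on the log2 scale, beside 0.01 over all probe sets tested.

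The scale of the arrays sets where 0 lies. Over all probe sets 1560 rose and 1262 fell after day 0. On arrays scaled to the hybridization controls 623 rose and 3617 fell, with the median of all probe sets at -0.34, and with arrays centred on their medians 1170 rose and 1769 fell. On the hybridization control scale the changes of ACADVL, HADHA and CPT1B were -1.13, -0.96 and -0.96, all below that median. This scaling lowers all probe sets by about the same amount, so the 6 member probe sets above 0 on the deposited scale were all below 0 there, between -0.33 and -0.03.

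**Figure D1:**
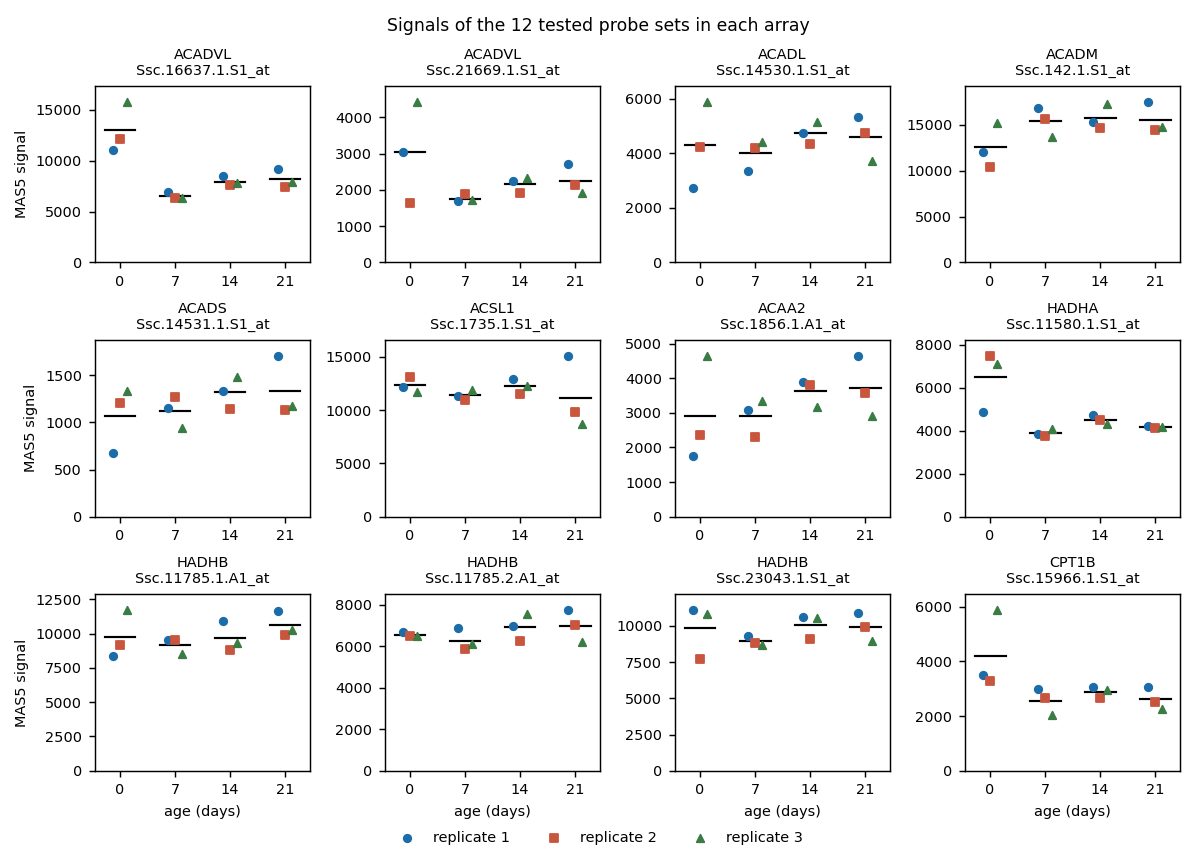
Signal of each tested probe set (vertical axis, MAS5 units from 0) by age in days (horizontal axis), with 1 symbol per array and a bar at the mean of the 3 arrays of an age. In the brighter ACADVL probe set, HADHA and CPT1B the day 0 arrays lie above all later ones, and in the other 9 probe sets day 0 and the later ages overlap. The brighter ACADVL panel is the left one, and the HADHB panels show the brightest, the dimmest and the other probe set from left to right.

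Among the dehydrogenases, the brighter ACADVL probe set had signals of 11065.4, 12161.5 and 15785.3 at day 0, 6895.6, 6307.8 and 6356.7 at day 7, 8451.4, 7567.9 and 7765.5 at day 14, and 9199.5, 7446.0 and 7941.8 at day 21. The lowest newborn array was thus above the highest later one, and the day 7 arrays were the lowest. The log2 change of the later ages from day 0 was -0.78 ± 0.12 (SE, 9 arrays against 3, limma adjusted p = 0.00106), with a 95% interval of -1.04 to -0.52. In the first week alone it was -0.98 ± 0.15 (adjusted p = 0.00238), and at day 21 against day 0 it was -0.66 ± 0.15 (adjusted p = 0.0142). Both comparisons use the same day 0 arrays. The F test over the 4 ages also called this probe set (adjusted p = 0.00682). The call at day 21 was lost without day 21 replicate 3 (adjusted p = 0.0531) and when only the 6 arrays compared were fitted (adjusted p = 0.0849). The F test call was lost when the spike ratio was a covariate (adjusted p = 0.0668).

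The dimmer ACADVL probe set had 3050.4, 1645.5 and 4427.8 at day 0, 1679.6, 1878.1 and 1721.8 at day 7, 2232.4, 1903.0 and 2326.9 at day 14, and 2699.2, 2123.4 and 1924.3 at day 21. Day 0 replicate 2 was the lowest of all 12 arrays here, although it was not low in the brighter probe set. The change of the later ages was -0.47 ± 0.23 (limma adjusted p = 0.165) and did not pass. Without day 0 replicate 2 it was -0.85 ± 0.17 (adjusted p = 0.00935). That array also had the highest spike ratio, 1.59, and with this covariate the change was -1.06 ± 0.20 (adjusted p = 0.0122). Over 22 alternatives the change ran from -1.06 to -0.14, the last without day 0 replicate 3. Of these, 3 passed, and the limma adjusted p was as high as 0.675. The 2 probe sets of ACADVL therefore had the same sign and differed in the call.

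ACADL, the long chain dehydrogenase, had 2732.1, 4243.6 and 5888.5 at day 0, 3344.7, 4203.6 and 4431.4 at day 7, 4758.7, 4349.5 and 5135.7 at day 14, and 5338.6, 4758.2 and 3724.5 at day 21. The newborn arrays spanned the whole range of the later ones. Its change was 0.11 ± 0.20 (limma adjusted p = 0.735), with a 95% interval of -0.31 to 0.53. ACADM, the medium chain dehydrogenase whose loss is a common inherited disorder of fat oxidation in humans, had 12056.1, 10376.7 and 15193.5 at day 0, 16795.6, 15697.4 and 13729.1 at day 7, 15273.4, 14716.0 and 17275.2 at day 14, and 17524.2, 14392.7 and 14805.0 at day 21. All newborn arrays but replicate 3 were below every later array. Its change of 0.33 ± 0.13 did not pass (limma adjusted p = 0.0852, 95% interval 0.05 to 0.60). Without day 0 replicate 3 it was 0.47 ± 0.12 and passed (adjusted p = 0.0177). On arrays scaled to the hybridization controls it was -0.03 (adjusted p = 0.906).

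ACADS, the short chain dehydrogenase, had 678.0, 1203.1 and 1336.8 at day 0, 1149.1, 1267.1 and 945.2 at day 7, 1332.1, 1143.2 and 1481.1 at day 14, and 1706.3, 1129.3 and 1174.0 at day 21. Only day 0 replicate 1 stood below the later arrays. The change was 0.27 ± 0.21 (limma adjusted p = 0.390), with a 95% interval of -0.18 to 0.72.

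The dehydrogenases were then set against each other within each array, which removes the scale of the array. For each of the 6 pairs among the brightest probe sets of ACADVL, ACADL, ACADM and ACADS, the log2 difference was compared between the 9 later arrays and the 3 at day 0 by an exact two-sided permutation test, whose smallest possible p is 0.00455. The difference of ACADVL from ACADM changed by -1.10 on the log2 scale after day 0. Centred on its mean, that difference lay between -0.54 and -0.08 on the later arrays and between 0.65 and 1.0 at day 0. The difference of ACADVL from ACADS changed by -1.05 and that from ACADL by -0.89. In these 3 pairs all 9 later arrays lay below all 3 newborn arrays (exact permutation p = 0.00455, adjusted 0.00909 over the 6 pairs in each). An exact permutation of the F ratio over the 4 ages gave adjusted p-values of 0.00662 for ACADVL against ACADM and 0.0282 for both others.

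The tests among the long, medium and short chain enzymes did not pass. ACADL against ACADM had a difference of -0.22 (exact permutation p = 0.305, adjusted 0.365), ACADL against ACADS -0.16 (0.282, adjusted 0.365) and ACADM against ACADS 0.06 (0.786, adjusted 0.786). The newborn arrays spread widely in the last pair, from -0.52 to 0.52 around its mean. ACADVL was thus the one of the 4 whose change differed from each of the others in these tests. With the dimmer ACADVL probe set, an alternative chosen after seeing the data, the difference from ACADM was -0.79 (exact permutation, adjusted p = 0.0273). Those from ACADS and ACADL were then -0.74 and -0.58 and did not pass (adjusted p = 0.0909 in both).

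**Figure D2:**
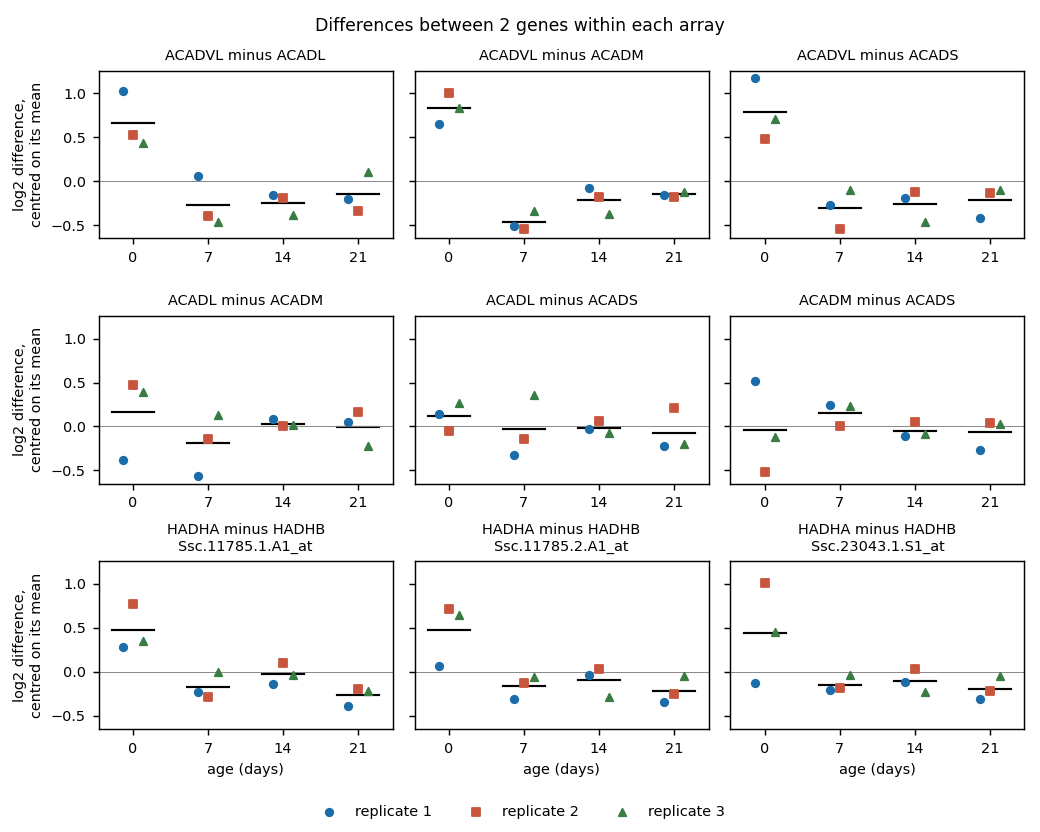
Log2 difference between 2 genes within each array, centred on its mean over the 12 arrays (vertical axis), by age in days (horizontal axis), with 1 symbol per array and a bar at the mean of an age. The 3 pairs with ACADVL lie high at day 0, with centred means of 0.67 to 0.83, the pairs without it overlap, and HADHA minus HADHB lies higher at day 0 with the brightest and the dimmest HADHB probe set.

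HADHA and HADHB are the alpha and beta subunits of 1 enzyme complex, and are neighbouring protein-coding genes in the RefSeq annotation of the assembly Sscrofa11.1. HADHA had 4884.9, 7484.0 and 7103.2 at day 0, 3866.9, 3740.6 and 4073.6 at day 7, 4723.8, 4478.3 and 4318.2 at day 14, and 4233.4, 4117.9 and 4189.2 at day 21. All later arrays were below the lowest newborn one, and day 21 was the tightest age of this gene. The log2 change after day 0 was -0.61 ± 0.13 (limma adjusted p = 0.00616), with a 95% interval of -0.89 to -0.33. In the first week it was -0.71 ± 0.16 (adjusted p = 0.0166), and at day 21 against day 0 it was -0.61 ± 0.16 (adjusted p = 0.0254).

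With the spike ratio added to the fit the HADHA calls were lost, at -0.43 ± 0.16 for the later ages (adjusted p = 0.131), -0.51 ± 0.19 for day 7 (0.203) and -0.47 ± 0.17 for day 21 (0.118). The day 7 call was also lost without day 0 replicate 2 (limma adjusted p = 0.0561), day 7 replicate 1 (0.0585) or day 7 replicate 2 (0.0645), and the day 21 call without day 0 replicate 2 (0.0831) or 3 (0.0545) or any single day 21 array (0.0623 to 0.0749). Fitting only the 6 arrays compared ended both calls (0.0815 and 0.119), and dropping the variance trend ended that at day 21 (0.0560). The F test over the ages called HADHA (adjusted p = 0.0381), a call that 15 of 22 alternatives ended.

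HADHB, which carries the thiolase activity of the complex, did not pass in any of its 3 probe sets. The brightest had 8391.1, 9157.4 and 11701.9 at day 0, 9524.5, 9546.0 and 8527.9 at day 7, 10896.1, 8779.9 and 9317.0 at day 14, and 11648.1, 9868.3 and 10244.7 at day 21. The dimmest lay between 5846.2 and 7738.5 on the later arrays and between 6501.4 and 6675.7 at day 0, and the other between 8658.6 and 10877.8 on the later arrays and between 7698.7 and 11071.8 at day 0. The ages overlapped in all 3. The changes were 0.02 ± 0.12, 0.03 ± 0.11 and -0.02 ± 0.12 (limma adjusted p = 0.934, 0.878 and 0.934), and the widest of the 95% intervals ran from -0.29 to 0.25.

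The difference between both subunits within an array was tested after the values had been seen. The difference of HADHA from HADHB changed after day 0 by -0.63, -0.64 and -0.59 with the 3 HADHB probe sets in the order above (exact two-sided permutation p = 0.00455, 0.00455 and 0.0227, adjusted 0.00682, 0.00682 and 0.0227 over 3 tests). With the first 2 probe sets no later array reached the newborn ones. With the third they overlapped, and the exact permutation test did not pass without day 0 replicate 2 (difference -0.31, adjusted p = 0.0909) or day 0 replicate 3 (-0.59, 0.0909).

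CPT1B, the rate-limiting step of entry into the mitochondrion and the target of malonyl-CoA, had 3489.0, 3269.9 and 5867.3 at day 0, 2994.0, 2674.7 and 2029.6 at day 7, 3045.9, 2644.0 and 2964.3 at day 14, and 3071.1, 2501.2 and 2246.5 at day 21. The newborn arrays were above all others, but replicates 1 and 2 by little. The change after day 0 was -0.61 ± 0.18 (limma adjusted p = 0.0337), with a 95% interval of -1.0 to -0.21. Without day 0 replicate 3 it was -0.34 ± 0.17 and did not pass (adjusted p = 0.164). Without day 14 replicate 2, day 21 replicate 3 or day 7 replicate 3 the adjusted p was 0.0542, 0.0558 and 0.0523, and with array weights and without a variance trend it was 0.0698 and 0.0566. The single comparisons did not pass, at -0.68 ± 0.22 for day 7 (adjusted p = 0.0754) and -0.65 ± 0.22 for day 21 (0.0767). On arrays scaled to the hybridization controls they passed, at -0.99 (0.0188) and -1.03 (0.0105), as they did after median centring (0.0362 and 0.0338), and with the spike covariate day 21 passed (-0.88, 0.0467).

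ACSL1, the main long chain acyl-CoA synthetase of muscle and fat, had 12194.5, 13118.3 and 11704.7 at day 0, 11345.4, 10918.6 and 11902.6 at day 7, 12922.7, 11553.2 and 12248.0 at day 14, and 15079.9, 9798.4 and 8661.6 at day 21. Its widest age was day 21, where the highest array was 1.74 times the lowest. The change after day 0 was -0.10 ± 0.14 (limma adjusted p = 0.652, 95% interval -0.41 to 0.20). ACAA2, a thiolase of the mitochondrial matrix, had 1764.9, 2346.9 and 4644.4 at day 0, 3071.5, 2312.2 and 3335.4 at day 7, 3902.0, 3809.8 and 3157.8 at day 14, and 4641.7, 3565.4 and 2913.4 at day 21. Newborn replicate 3 was the brightest of all arrays, and replicate 1 the dimmest. The change was 0.32 ± 0.24 (limma adjusted p = 0.377), and 0.72 ± 0.19 without day 0 replicate 3 (adjusted p = 0.0217).

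The newborn arrays differed among themselves more than later ones in most members. Day 0 had the widest range of the 4 ages in 10 of 12 probe sets, beside 43.7% of all probe sets tested. Day 0 replicate 3 was the highest of the newborn arrays in 8 of 12, beside 33.7% of all tested.

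**Figure D3:**
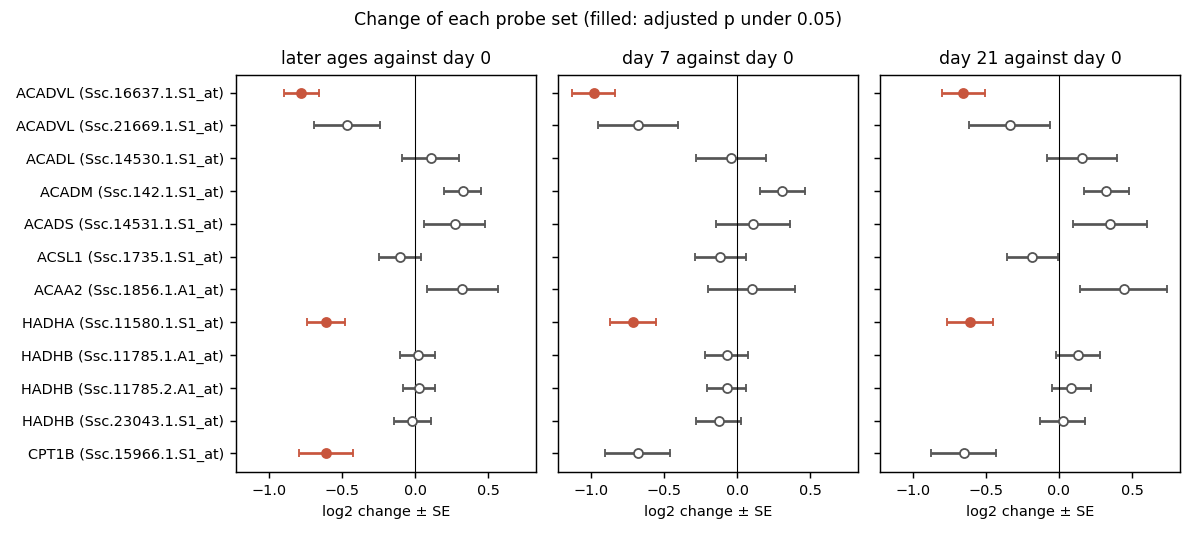
Log2 change with its standard error (horizontal axis) of the 12 tested probe sets (rows) for the later ages, day 7 and day 21, each against day 0, with filled points for an adjusted p under 0.05. The brighter ACADVL probe set and HADHA are called in all 3 comparisons and CPT1B in the first, all to the left of 0.

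By week, members were called in the first and in neither of the others. Between day 0 and day 7, 2 of 12 member probe sets were called, both lower, beside 9.4% of all probe sets called and 3.64% called lower, and the median change of the members was -0.09. Between day 7 and day 14 limma called 0 of 12, and 0 at an unadjusted p under 0.05, beside 0.00694% (1 probe set) and 857 unadjusted among all. In that week the change was above 0 in 12 of 12 member probe sets, from 0.03 to 0.33 with a median of 0.20, beside a median of 0.01 over all probe sets. The largest were 0.33 ± 0.30 in ACAA2 and 0.29 ± 0.28 in the dimmer ACADVL probe set, both near their standard errors. In the brighter ACADVL probe set it was 0.28 ± 0.15, the member nearest the threshold in that week (limma adjusted p = 0.854). On arrays scaled to the hybridization controls the change of ACADM in that week was -0.03. The sign held in 20 of 23 alternatives for ACADM, in 22 for the brightest HADHB probe set and in all 23 for the others. The 12 include 2 probe sets of ACADVL and 3 of HADHB, so they are not 12 separate genes. The day 14 arrays lay above all day 7 arrays in 3 of 12, both ACADVL probe sets and HADHA, beside 6.81% of all probe sets. Between day 14 and day 21 limma called 0 of 12, and 0 unadjusted, beside 0% of all probe sets and 436 unadjusted. The members' changes then ran from -0.17 to 0.13. HADHA, 1 of 12, had all day 21 arrays below all day 14 arrays, beside 4.03% of all probe sets. From day 0 to day 21, 2 of 12 were called, both lower, beside 11.5% of all and 4.9% lower. Over the 4 ages 2 of 12 were called by the F test, beside 8.88%.

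For each dehydrogenase the genes with the most similar course were those with the smallest root mean square distance over the 12 arrays, after each log2 profile was centred on its own mean. Among 5295 other genes the nearest to ACADVL were FOXRED1 at 0.16, TBRG4 at 0.17 and HADHA at 0.17, where the median distance was 0.49. CPT1B stood at place 10, HADHB at 894, ACADL at 1974, ACADS at 2737 and ACADM at 2804. The nearest to ACADM were FH at 0.09, NDUFA4 at 0.12 and CFLAR at 0.13. The nearest to ACADL were CYBA at 0.13, GSTK1 at 0.15 and PPTC7 at 0.16, with ACADS at place 20. The nearest to ACADS were ATP6V1F at 0.15, COQ9 at 0.15 and NFS1 at 0.18, with ACADL at place 13. Distances are small for any 2 genes that vary little, so they describe these arrays only. They also use the same 12 arrays as the tests above. FOXRED1 and TBRG4 were themselves called lower after day 0, at -0.74 and -0.63 (limma adjusted p = 0.0288 and 0.00457). The places of HADHA and CPT1B near ACADVL thus restate their calls and are no separate support.

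In 13 lists around the pathway, with 129 genes listed and 80 tested by their brightest probe set, 13 genes rose and 6 fell after day 0 and the median change was -0.02. That is 23.8% of the genes tested, near the 19.6% of all probe sets. The balance depended on the scale, with 6 higher and 21 lower on arrays scaled to the hybridization controls and 9 higher and 11 lower after median centring. With the spike covariate 4 were higher and 0 lower, with array weights 9 and 2, without day 0 replicate 1 7 and 6, and without day 0 replicate 2 8 and 4. The largest rise was in OXCT1, the enzyme that activates ketone bodies for oxidation. Its signal was 1600.7 to 2653.6 on the later arrays and 390.6 to 622.4 at day 0, a log2 change of 2.0 ± 0.19 (limma adjusted p = 9.8e-05). The other ketone body gene tested, BDH2, was at -0.21 ± 0.22 (limma adjusted p = 0.543).

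Among 6 other acyl-CoA dehydrogenases, 2 rose and 0 fell. IVD, which acts on a product of leucine breakdown and not on fat, had 482.9 to 1026.1 on the later arrays and 204.8 to 430.3 at day 0, a change of 1.16 ± 0.24 (limma adjusted p = 0.00568). ACADSB, which acts on short branched chains, changed by 0.67 ± 0.20 (adjusted p = 0.0305). With the spike covariate both calls were lost, at 0.78 (adjusted p = 0.142) and 0.22 (0.556). Leaving out newborn replicate 1 (0.0530) or 2 (0.35, 0.177) or day 21 replicate 1 (0.0518) also ended the call on ACADSB, and so did scaling to the hybridization controls (0.31, 0.268). Median centring, array weights and no variance trend ended it as well (0.0506 to 0.0517).

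In the carnitine system 2 of 4 genes rose and 0 fell. CRAT, which joins short acyl groups to carnitine, had 4504.8 to 8059.7 on the later arrays and 2924.8 to 4535.6 at day 0, a change of 0.72 ± 0.16 (limma adjusted p = 0.00768, and 0.75 with an adjusted p of 0.0645 with the spike covariate). SLC22A5, which brings carnitine into the cell, changed by 0.93 ± 0.26 (limma adjusted p = 0.0253), a call that 6 of its 21 alternatives ended, among them those without day 0 replicate 1 (0.0887) or 2 (0.0997). SLC25A20, the carrier that works between both carnitine palmitoyltransferases, was at -0.13 ± 0.13 (limma adjusted p = 0.525), and CPT1A, the liver form of CPT1B, at -0.10 ± 0.24 (0.806). Of 3 electron transfer genes, which take electrons from the acyl-CoA dehydrogenases, 0 rose and 1 fell. This was ETFDH, at 4820.2 to 6465.0 on the later arrays and 6582.2 to 7622.2 at day 0, with a change of -0.39 ± 0.11 (limma adjusted p = 0.0284). The adjusted p of ETFDH was 0.120 without day 0 replicate 2 and 0.0519 without day 7 replicate 1, and it was 0.282 with the spike covariate, 0.0686 with array weights and 0.0650 without a variance trend. Its partners ETFA and ETFB were at 0.01 ± 0.14 and -0.14 ± 0.15 (limma adjusted p = 0.969 and 0.537).

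Of 8 genes of uptake and binding 2 rose and 0 fell. DBI, which binds acyl-CoA in the cytosol, changed by 0.72 ± 0.18 (limma adjusted p = 0.0145), and by 0.49 without day 0 replicate 1 (0.0780) and 0.67 without replicate 2 (0.0649). GPIHBP1, which holds lipoprotein lipase on capillary endothelium, changed by 0.68 ± 0.19 (limma adjusted p = 0.0231), and did not pass without day 0 replicate 2 (0.0692) or 3 (0.107). On the hybridization control scale neither passed, at 0.37 and 0.33 (0.133 and 0.262), nor did they with the spike covariate, at 0.67 and 0.63 (0.135 and 0.170), nor GPIHBP1 with median centring (0.0553). Of 5 synthetases besides ACSL1, 0 rose and 1 fell. This was ACSL4, which prefers arachidonic acid, at -0.61 ± 0.16 (limma adjusted p = 0.0186), and its call was lost without day 0 replicate 1 (0.0599), with the spike covariate (-0.65, 0.103) and with array weights (0.0681).

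Among 8 genes of lipolysis and lipid droplets 2 rose and 1 fell. MGLL, the monoglyceride lipase, changed by 0.81 ± 0.19 (limma adjusted p = 0.0104), and did not pass without day 0 replicate 1 (0.60, 0.0542) or on the hybridization control scale (0.46, 0.0779). ABHD5, the coactivator of adipose triglyceride lipase, changed by -0.88 ± 0.23 (limma adjusted p = 0.0182), and did not pass without day 0 replicate 1 (-0.62, 0.101), with array weights (0.0686) or with the spike covariate (-1.0, 0.0826). The other rise, in the triglyceride-forming DGAT2, was 1.31 ± 0.43 (limma adjusted p = 0.0468), a call that 16 of its 21 alternatives ended. Of 8 peroxisomal genes 1 rose and 1 fell. These were PHYH, which removes branched phytanic acid, at 0.55 ± 0.14 (limma adjusted p = 0.0164), and the bifunctional enzyme HSD17B4 at -0.49 ± 0.15 (0.0392), calls that 6 and 11 of 22 alternatives ended. Of 5 auxiliary enzymes for unsaturated chains and 2 propionyl-CoA genes, limma called 0 in either direction for the later ages together. ECI2, an isomerase for double bonds, was at -0.79 ± 0.27 (limma adjusted p = 0.0530) and passed in 7 of 22 alternatives, and at day 7 it was called at -1.12 ± 0.33 (0.0494). DECR2, a peroxisomal reductase of the same list, was at 0.62 ± 0.27 (limma adjusted p = 0.121), and passed without day 0 replicate 3 at 1.06 (0.00564).

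Of 20 regulators 3 rose and 1 fell. UCP3, an inner membrane carrier of muscle mitochondria, had 621.6 to 1295.3 on the later arrays and 250.6 to 355.7 at day 0, a change of 1.62 ± 0.21 (limma adjusted p = 0.0004). ADIPOR2, an adiponectin receptor, rose by 0.81 ± 0.12 (adjusted p = 0.000845) and RXRG, a partner of nuclear receptors, by 1.77 ± 0.34 (0.00387). PRKAG1, a subunit of AMP-activated protein kinase, changed by -0.66 ± 0.13 (0.00456). With the spike covariate RXRG was at 1.63 and PRKAG1 at -0.62, close to those values, and neither passed (limma adjusted p = 0.0637 and 0.0599).

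Of 11 genes taken as a measure of mitochondrial content, 0 rose and 2 fell, with a median change of 0.02. Over all probe sets 19.6% were called in either direction and 8.76% lower. The succinate dehydrogenase subunit SDHB was at 0.34 ± 0.18 and the import receptor TOMM20 at -0.35 ± 0.16 (limma adjusted p = 0.207 and 0.152). The falls were in HSPD1, the mitochondrial chaperonin, at -1.03 ± 0.13 (limma adjusted p = 0.0004), and in the outer membrane channel VDAC2 at -0.41 ± 0.13 (0.0376), a call that 13 of 22 alternatives ended. The summed signal of this list overlapped, at 146796.1 to 180933.3 on the later arrays and 144036.8 to 204021.0 at day 0.

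**Figure D4:**
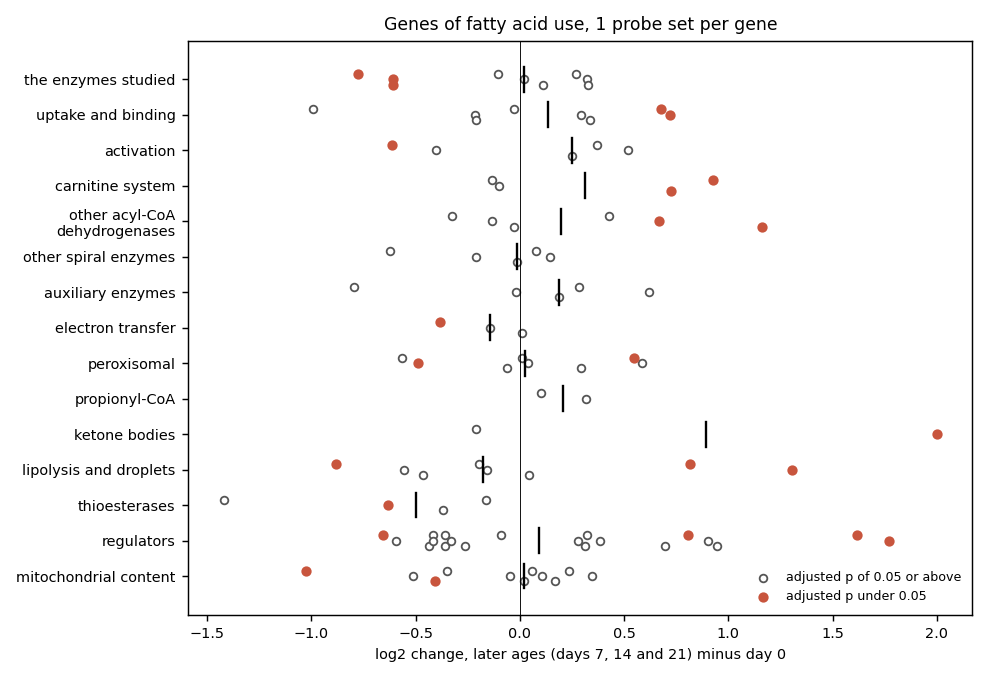
Log2 change of the later ages from day 0 (horizontal axis) of each tested gene, by list (rows), with 1 point per gene, filled for an adjusted p under 0.05, and a bar at the median of the list. In the first row the 3 filled points, ACADVL, CPT1B and HADHA, lie between -0.78 and -0.61, and OXCT1 in the row of ketone bodies lies furthest to the right at 2.0.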

How the data were processed

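Total RNA of pig skeletal muscle was labelled with biotin and hybridized to Affymetrix arrays, per the labels' protocols. The deposited values are linear signal intensities, 1 per probe set, and per the submitters' processing notes the authors used MAS5, whose version is not given in the sources used here. All arrays had a 2% trimmed mean of 500.1, so values were only turned to log2. Changes are therefore relative to an equal trimmed mean.

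The 124 control probe sets and the lowest 40% of the rest by mean log2 signal were left out, which left 14399. Symbols came from the platform annotation, and all 13 member probe sets matched current RefSeq names by Entrez identifier. The model held a mean per age over the 12 arrays and a mean-variance trend (limma 3.58.1 in R 4.3.3). The limma p-values rest on the spread between samples of the same age, pooled over all ages and moderated across probe sets. They do not use the spread of day 0 alone, which was often wider. In HADHA the log2 SD was 0.34 at day 0, 0.06 at day 7, 0.07 at day 14 and 0.02 at day 21. Comparisons with day 0 can thus look more certain than the newborn arrays alone would allow. Exact permutation tests were run in Python 3.11.15. A gene in a list was represented by its brightest tested probe set. All member probe sets are reported, and up to 4 genes per list in order of p. The members and lists were chosen with earlier results of these data known.

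The fit was tested on simulated data with 14399 probe sets, of which 100 changed 2-fold and 100 changed 4-fold. For the later ages against day 0 it recovered 51 and 91, and called 7 unchanged ones. Alternatives were other scalings, filters, an offset of 29.7, variance models, the spike ratio (12 probe set pairs) as a covariate, the replicate number as a block, and leaving out each array.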

Additional observations from a re-analysis of the deposited data

How the results depend on the processing

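Of 1632 member values recomputed, 0 reversed among those called, 38 lost a call and 19 gained one. Most of the 1632 had no call to lose. The main fit called only 2 member probe sets in the F test and 3 for the later ages. It called 2 for day 7 and 2 for day 21, so the 38 losses fall on the alternatives of these few. Over the 4 ages the 2 called member probe sets became 1 with no filter on low signal, 1 without a variance trend, 0 with the spike covariate and 1 to 2 when single arrays were left out. For day 7 the 2 became 4 on arrays scaled to the hybridization controls, 1 when only the 6 arrays compared were fitted, and 1 to 2 without single arrays. For day 21 the 2 became 3 with hybridization control scaling, with median centring and with the spike covariate, 1 without a variance trend, 0 when only the arrays compared were fitted, and 0 to 3 without single arrays, where day 0 replicate 3 gave 3 and day 21 replicate 3 gave 0. For the later ages together the count of 3 became 2 to 4 without single arrays. It was 4 without day 0 replicate 2, all lower, and 4 without day 0 replicate 3, of which 2 were higher, ACADM and ACAA2. The 3 called dehydrogenase differences were 3 without any single array and 1 with the dimmer ACADVL probe set. The 3 differences of HADHA from HADHB were 2 to 3 without single arrays.

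Samples were not treated as paired by replicate number. Residuals of same-numbered samples correlated between -0.20 and 0.11 over 18 pairs, and those of different numbers between -0.18 and 0.24 over 36. With 3 samples per age such a check cannot exclude a pairing. With the replicate number as a block, the F test called 1 member, HADHA having an adjusted p of 0.0698, and the other counts of called members did not move.

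Over all probe sets the F test called 1278, against 215 with the spike covariate, 570 without day 0 replicate 2 and 2105 on the hybridization control scale. The later ages gave 2822, against 958 and 4240 for the first and last of these and 1819 without day 0 replicate 2. Day 7 gave 1353 (829 higher, 524 lower), against 222 with the covariate, 477 when only the arrays compared were fitted and 484 to 1677 without single arrays. Scaling to the hybridization controls gave 358 higher and 1636 lower for day 7, and median centring 605 and 736. Day 21 gave 1657 (952 higher, 705 lower), against 948 with the covariate, 590 with only the arrays compared and 787 to 2031 without single arrays. The same scalings gave 397 higher and 2486 lower, and 739 and 1021. The cause of these shifts was not tested. Of 100 simulated 2-fold changes the test found 51 for the later ages, 30 for day 7, 36 for day 21 and 31 for the F test. The simulation drew on the spread of all tested probe sets, and for these in general a missed call leaves such a change possible. The uncalled members were narrower for the later ages, where all their 95% intervals lay within a 2-fold change on the deposited scale. The lowest end was -0.96, in the dimmer ACADVL probe set, and the highest 0.84, in ACAA2.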

Other observations

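Of 12 listed genes of fatty acid synthesis 8 had a probe set and 4 passed the filter, and limma called 0 of them after day 0 in either direction, with ME1, the cytosolic malic enzyme, at -0.52 ± 0.35 (limma adjusted p = 0.329) and ELOVL6, a chain elongase, at 0.50 ± 0.39 (0.407). A list of other enzymes related to the later spiral steps had 5 tested genes, and none was called for the later ages. The F test over the 4 ages called 1 of them, ACAT2 (limma adjusted p = 0.0443). ACAT2 is a cytosolic thiolase and so no part of the mitochondrial spiral. For the later ages ACAT2 was at -0.62 ± 0.27 and HSD17B10 at -0.21 ± 0.13 (0.118 and 0.273), and on the hybridization control scale they passed at -0.97 and -0.56 (0.0170 and 0.00478). HADH, the dehydrogenase for shorter hydroxyacyl chains, was at 0.08 ± 0.15 and ECHS1, the matching hydratase, at -0.01 ± 0.15 (limma adjusted p = 0.757 and 0.963). Among 4 thioesterases, which split acyl-CoA, 1 fell. This was ACOT9, at 887.6 to 1312.0 on the later arrays and 1552.6 to 1818.2 at day 0, with a change of -0.63 ± 0.14 (limma adjusted p = 0.00812, and -0.64 with an adjusted p of 0.0706 when the spike ratio was a covariate).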
